A study of Arabidopsis thaliana with 36 samples.

Results

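The transcriptome of gin2 seedlings given glucose was compared with that of Ler seedlings given glucose, in 3 libraries of each genotype out of 36 in the series. The 6 libraries were gin2+Glc replicates 1 to 3 and Ler+Glc replicates 1 to 3, taken by their labels. Genes listed with a value in all 12 Ler and gin2 libraries and reaching at least 1 RPM (reads per 1e+06 reads) in at least 3 of them were kept, which left 17352 of the 33619 genes in the deposited table. Whole Arabidopsis thaliana seedlings, 4 days old, had grown in liquid medium at reduced salt strength without glucose under a cycle of light and dark. The +Glc groups then received 15 mM glucose for 2 h, and the -Glc groups of both genotypes, which served as the unfed reference here, received none. Ler is the accession that the labels give as wild type, and gin2 is labelled only as the gin2 mutant. All 12 libraries came from seedlings grown without glucose before the treatment, and the labels call the 3 libraries of a group biological replicates.

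Hexokinases phosphorylate glucose when it enters metabolism. HXK1 of Arabidopsis is also known as a glucose sensor that acts in the nucleus apart from its catalysis, and gin2 (glucose insensitive) is the name of its mutant. In wild-type seedlings glucose represses genes that mobilise reserves during starvation, acting against the starvation kinase SnRK1, and it induces genes of growth and storage. Because 1 mutant line was compared with 1 accession, the HXK1 lesion and any other difference between these lines cannot be told apart.

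The deposited RPM columns of these libraries summed to less than the stated denominator. The share of the denominator outside the listed genes, the unlisted share, was 41.3% ± 12.7 (SD, n = 3) in Ler+Glc and 16.6% ± 1.41 (SD, n = 3) in gin2+Glc. Which reads make up this share cannot be seen from the values. Levels are therefore given as scaled RPM, the deposited RPM divided by a median-of-ratios factor of each library, which ranged from 0.656 to 1.055 in Ler+Glc and from 1.28 to 1.34 in gin2+Glc. Reads on the tested genes numbered 8.75 to 11.5 M (1e+06) in Ler+Glc and 10.9 to 11.7 M in gin2+Glc. Log2 profiles correlated across genes at r = 0.976 to 0.994 within the glucose-treated groups and at 0.943 to 0.963 between the genotypes, where genes are not independent replicates. Replicate 3 of Ler stood apart in both glucose states. In Ler+Glc replicate 3, 54.0% of the denominator lay outside the listed genes. Transcripts of seed storage and late embryo genes, listed below, were highest in that library. Root and leaf transcripts were both present, as the label of whole seedlings implies, with the 14 tested root and root hair markers summing to 1229 to 1782 scaled RPM in Ler+Glc and to 1341 to 1437 in gin2+Glc.

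HXK1 transcript was lower in gin2. With glucose, HXK1 (AT4G29130) stood at 62.9, 62.7 and 51.2 scaled RPM in the Ler+Glc libraries and at 13.9, 13.7 and 12.7 in the gin2+Glc libraries. The groups did not overlap, and transcript remained in every gin2 library. The difference was -2.05 ± 0.116 on the log2 scale (SE, n = 3 per group, adjusted p = 6.97e-08, limma), a 4.13-fold lower level. Tested alone, HXK1 gave p = 0.1 in a two-sided exact permutation test, which is the smallest p that 3 against 3 libraries allow. Without glucose the difference was -1.73, and the change in the difference between glucose states, -0.32 ± 0.164, did not pass the test (adjusted p = 0.549, limma). All log2 values are differences of mean log2(scaled RPM + 1), a scale that understates the change of weakly expressed genes, and genes with a Benjamini-Hochberg adjusted p below 0.05 over all 17352 genes are termed called.

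**Figure D1:**
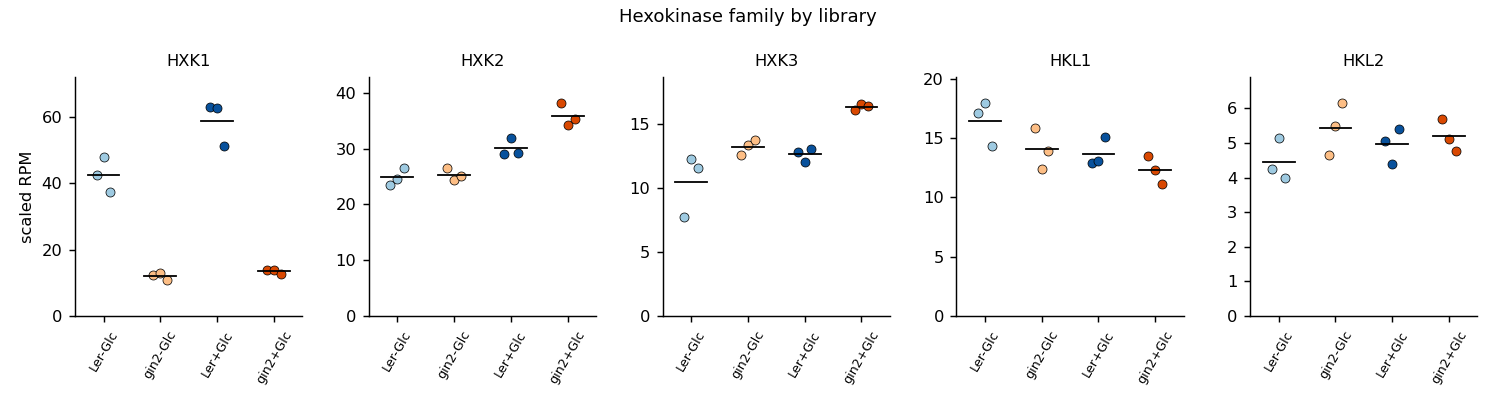
Scaled RPM of the 5 tested hexokinase genes on linear axes from 0, with 1 point per library and a line at the mean of the 3 libraries of each group. HXK1 sits between 12.7 and 13.9 in gin2+Glc and between 51.2 and 62.9 in Ler+Glc, while the group means of the other 4 genes lie much closer together.

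The other hexokinase genes differed little. HXK2 (AT2G19860), which encodes a catalytic hexokinase, stood at 29.1, 31.9 and 29.2 scaled RPM in Ler+Glc and at 38.2, 34.2 and 35.3 in gin2+Glc. Its difference of 0.25 ± 0.0914 lay just inside the threshold (adjusted p = 0.0481, limma), and the call was lost with DESeq2 (adjusted p = 0.0514), with any of the 6 glucose-treated libraries but Ler+Glc replicate 2 left out (adjusted p = 0.071 to 0.18), without Ler-Glc replicate 2 or any gin2-Glc library (adjusted p = 0.0519 to 0.0639) and with the libraries scaled within classes of gene length (adjusted p = 0.18). HXK3 (AT1G47840), the plastid hexokinase, was at 12.0 to 13.0 scaled RPM in Ler+Glc and at 16.1 to 16.5 in gin2+Glc without passing the test (0.35 ± 0.137, adjusted p = 0.0639, limma), although edgeR called it (adjusted p = 0.0427) and so did limma without Ler-Glc replicate 1 (adjusted p = 0.013). The hexokinase-like genes HKL1 (-0.14 ± 0.126) and HKL2 (0.06 ± 0.141) overlapped between genotypes.

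Among the nuclear partners of HXK1 and the G-protein route of glucose sensing, 2 of 6 genes rose and 1 fell, against 17.1% of all genes called higher and 16.8% called lower. With 1 library left out the counts went down to 1 and 0. GPA1, the G-protein alpha subunit, stood at 21.5, 24.3 and 21.4 scaled RPM in Ler+Glc and at 35.4, 34.2 and 38.4 in gin2+Glc (0.66 ± 0.113, adjusted p = 0.000594, limma). RGS1, the membrane regulator of that subunit, rose by 0.46 ± 0.137, with its lowest gin2+Glc library at 9.46 and its highest Ler+Glc library at 9.18, and it missed the threshold when Ler+Glc replicate 1, gin2+Glc replicate 1 or gin2+Glc replicate 2 was left out (adjusted p = 0.078, 0.0918 and 0.0639, limma). AGB1, the beta subunit, was called lower by a small margin (-0.25 ± 0.0882, adjusted p = 0.0398, limma), a call that was lost without any 1 of the 6 glucose-treated libraries (adjusted p = 0.0581 to 0.14) or without gin2-Glc replicate 1 or 2 (adjusted p = 0.0511 and 0.0527) and whose direction turned on the RPM as deposited (0.40). GPA1 and RGS1 were also higher in gin2 without glucose, by 0.97 for GPA1 and 0.76 for RGS1.

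Across all genes the genotypes differed widely. Of 17352 genes, 5887 (33.9%) were called, 2974 higher in gin2+Glc (17.1%) and 2913 lower (16.8%), and these shares are the background against which the gene groups below are read. A difference of at least 2-fold was reached by 664 of them (3.83%), 293 higher and 371 lower. A 4-fold difference was reached by 17 higher and 60 lower genes. The direction of small differences depends on the scaling. With RPM as deposited the median of all genes moved from 0.02 to 0.62 on the log2 scale, and 9905 genes were called higher against 280 lower. With RPM recomputed over the tested genes alone, 4740 were called higher and 1969 lower. Counts of list members called in 1 direction also depend on single libraries, and where such a count was 4 or less, leaving out 1 library moved it by up to 3 members. In whole seedlings, fewer cells of a type and less RNA per cell cannot be told apart.

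**Figure D2:**
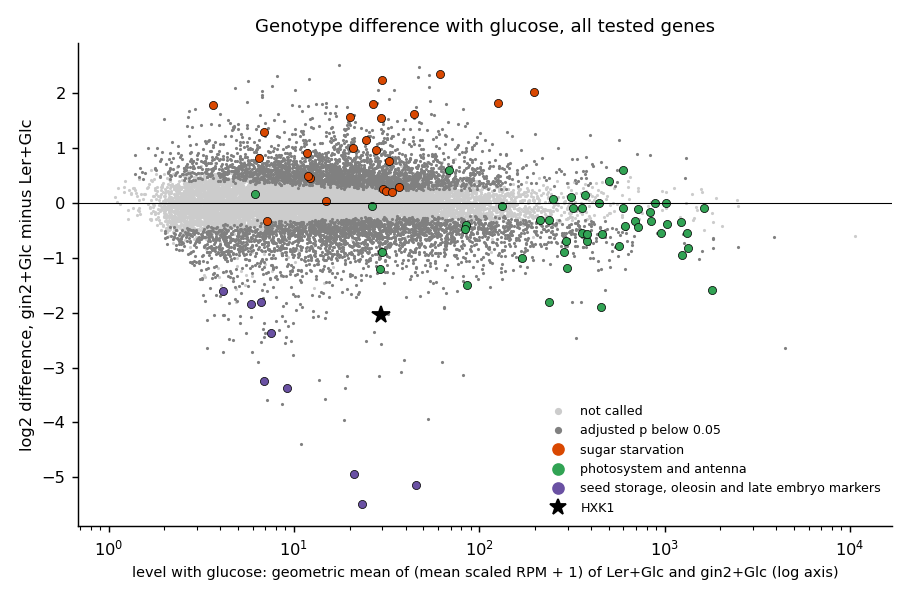
Log2 difference between gin2+Glc and Ler+Glc (vertical axis) against the level with glucose (horizontal log axis) for all 17352 tested genes, 1 point per gene. Starvation genes lie mostly above the line at 0, up to 2.36, seed storage and late embryo genes lie below it, down to -5.49, and HXK1 lies at -2.05.

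Genes of sugar starvation were the gene group with the most members higher in gin2 given glucose. Of 24 genes, 19 rose, none fell and 5 did not pass the test, against 17.1% of all genes called higher. Their median difference was 0.99, against 0.02 for all genes, and 20 of the 24 were higher with no overlap between the genotypes, where 51.8% of all genes had no overlap in either direction. With RPM as deposited 23 rose, with scaling within classes of gene length 18 rose, and without both Ler libraries numbered 3 22 rose. In none of these did a member fall.

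SEN5 (AT3G15450), a senescence- and dark-associated gene, stood at 17.7, 19.4 and 45.0 scaled RPM in Ler+Glc and at 113, 148 and 138 in gin2+Glc, a 5.13-fold difference (2.36 ± 0.249, adjusted p = 1.42e-05, limma). DIN10, a dark-inducible gene of the raffinose synthase family, stood at 82.6, 109 and 100.8 in Ler+Glc and at 365, 416 and 404 in gin2+Glc, 4.05-fold higher (2.02 ± 0.134, adjusted p = 3.15e-07, limma). BT2, a scaffold protein of ubiquitin ligases, stood at 69.2, 70.4 and 57.6 in Ler+Glc and at 209, 229 and 268 in gin2+Glc (1.82 ± 0.127). In each of the 3 genes every gin2+Glc library lay above every Ler+Glc library.

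TPS8, a trehalose phosphate synthase-like protein of the class without known catalytic activity, stood at 11.2, 14.0 and 13.1 scaled RPM in Ler+Glc and at 53.9, 71.6 and 66.7 in gin2+Glc (2.24 ± 0.125, adjusted p = 6.97e-08, limma). Its relatives TPS9 (1.55 ± 0.144), TPS10 (0.97 ± 0.0918) and TPS11 (1.57 ± 0.167), named after their values were seen, also rose. The 5 members that did not pass were ASN1, an asparagine synthetase (-0.33 ± 0.177), SEN1 (0.03 ± 0.177), PPDK, pyruvate phosphate dikinase (0.20), the proline dehydrogenase ERD5 (0.23) and DIN4, a subunit of branched-chain keto acid dehydrogenase (0.26). Without both Ler libraries numbered 3, PPDK, ERD5 and DIN4 were called higher (adjusted p = 0.0112, 0.00482 and 0.029, limma), and without Ler+Glc replicate 2 ASN1 was called lower (-0.57, adjusted p = 0.0104, limma). ASN1, among the strongest markers of sugar depletion, stood at 4.70 to 9.49 scaled RPM in Ler+Glc and at 5.07 to 5.61 in gin2+Glc, against 905 to 1222 in Ler-Glc.

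The summed level in gin2+Glc lay between the unfed and the fed wild type, though not that of every gene, since ASN1 lay within the range of Ler+Glc. Summed over the 24 genes, the starvation transcripts came to 467 to 569 scaled RPM in Ler+Glc and to 1290 to 1475 in gin2+Glc, and the groups did not overlap. Without glucose the sums were 9599 to 11444 in Ler-Glc and 10294 to 10565 in gin2-Glc, which overlapped. Gene by gene, 5 of the 24 were called higher and 1 lower in gin2 without glucose, with a median difference of 0.04. For 12 of the 24 the genotype difference was itself larger with glucose than without, by the test of the difference between the differences, against 1.48% of all genes.

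**Figure D3:**
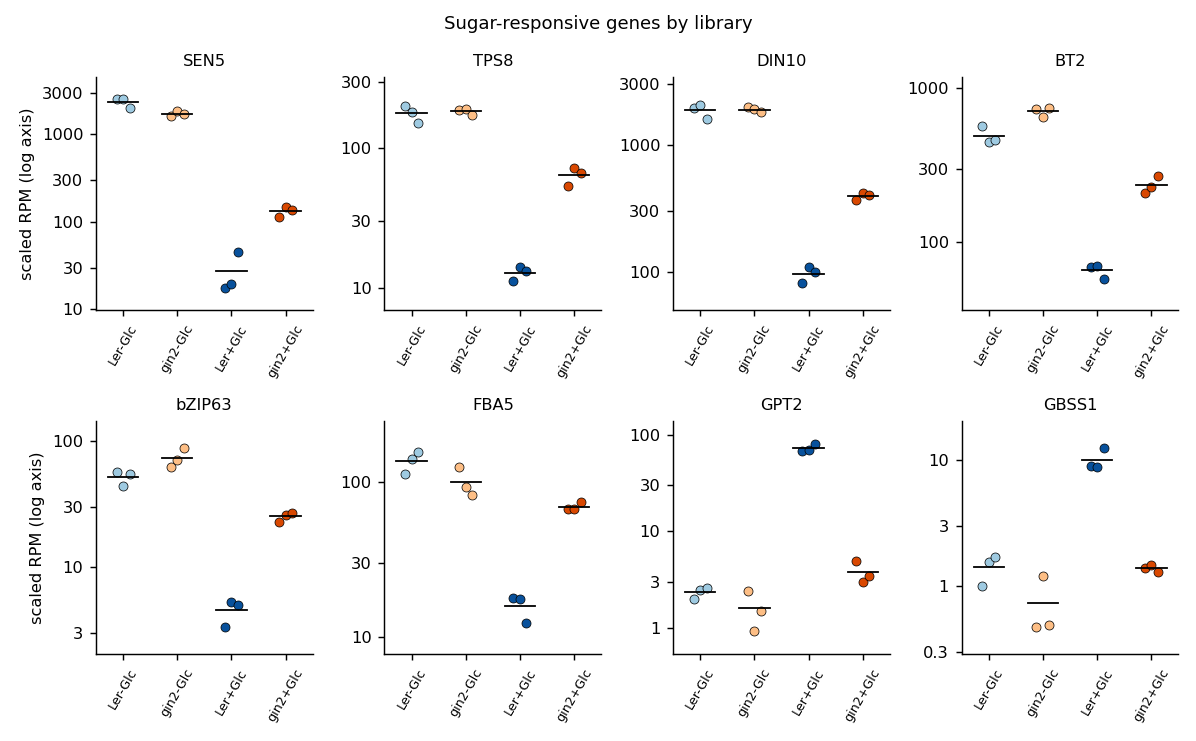
Scaled RPM (log axes) of 8 sugar-responsive genes in the 12 libraries, with 1 point per library and a line at each group mean. SEN5, TPS8, DIN10, BT2, bZIP63 and FBA5 are higher in gin2+Glc than in Ler+Glc, while GPT2 and GBSS1 are far lower in gin2+Glc than in Ler+Glc. The GPT2 values of gin2+Glc still lie above those of all unfed libraries.

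Regulators of sugar signalling moved in both directions. Of 16 genes of TOR, SnRK1, trehalose phosphate and bZIP signalling, 3 rose, 3 fell and 10 did not pass. bZIP63, a transcription factor that SnRK1 phosphorylates, stood at 3.35, 5.29 and 4.94 scaled RPM in Ler+Glc and at 22.6, 25.8 and 26.7 in gin2+Glc (2.25 ± 0.156, adjusted p = 4.61e-07, limma). KINB1, a regulatory beta subunit of SnRK1, stood at 10.2 to 10.6 in Ler+Glc and at 18.15 to 18.9 in gin2+Glc (0.78 ± 0.0893). TPS6 was higher (0.79 ± 0.11) and TPS5 lower (-0.80 ± 0.125), although TPS5 missed the threshold on the RPM as deposited (-0.16, adjusted p = 0.572).

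Among genes of at least 5 scaled RPM in the higher group, the largest fall outside the seed storage genes was in GPT2, the transporter that brings glucose 6-phosphate into plastids. GPT2 stood at 68.1, 69.2 and 79.6 scaled RPM in Ler+Glc and at 4.90, 3.0 and 3.48 in gin2+Glc. The gin2 libraries were 15.5-fold lower (-3.95 ± 0.194, adjusted p = 2.08e-08, limma). Without glucose GPT2 was at 1.99 to 2.58 in Ler-Glc and at 0.939 to 2.43 in gin2-Glc, so that the genotype difference was larger with glucose by -3.56 ± 0.274 (adjusted p = 2.13e-05, limma).

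Sugar transporters as a group showed no shared direction, with 6 of 23 higher and 7 lower. STP1, a plasma membrane monosaccharide symporter, stood at 51.6, 47.3 and 55.0 scaled RPM in Ler+Glc and at 91.3, 102 and 116 in gin2+Glc (0.99 ± 0.143). STP7 of the same family rose by 0.99 ± 0.17. SWEET15, a sucrose exporter, fell (-1.06 ± 0.271, not called on the RPM as deposited) and was at 6.54 to 10.2 in Ler+Glc against 2.07 to 4.54 in gin2+Glc.

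Starch synthesis genes also split, with 3 of 13 higher and 4 lower. GBSS1, the granule-bound synthase that makes amylose, stood at 8.83, 8.69 and 12.3 scaled RPM in Ler+Glc and at 1.38, 1.47 and 1.28 in gin2+Glc, a 4.55-fold difference (-2.18 ± 0.19, adjusted p = 2.92e-06, limma). Its unfed level in Ler was 0.995 to 1.69, and the genotype difference without glucose was -0.49. APL3, a large subunit of ADP-glucose pyrophosphorylase, fell by 0.92 on the log2 scale, while SS4, the synthase that initiates granules, rose by 0.94 ± 0.118. APL3 missed the threshold on the RPM as deposited (-0.33, adjusted p = 0.182).

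In starch breakdown 4 of 14 genes rose and 2 fell. BAM3, the main chloroplast beta-amylase, stood at 35.1 to 46.8 scaled RPM in Ler+Glc and at 79.6 to 87.8 in gin2+Glc (1.04 ± 0.133). BAM9, a beta-amylase-like protein, turned direction between the states, since gin2 was higher with glucose (0.85 ± 0.125) and lower without (-0.61). Of 14 invertase, sucrose synthase and sucrose phosphate synthase genes, 2 rose and 2 fell. SPS4F, a sucrose phosphate synthase, rose by 1.52 ± 0.137 and CWINV1, a cell wall invertase, by 0.74 ± 0.123.

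Cytosolic glycolysis and fermentation genes were lower in gin2 given glucose. None of 14 rose, 10 fell and 4 did not pass, against 16.8% of all genes called lower, and their median difference was -0.47. In the unfed seedlings 8 of the 14 fell and none rose, with a median of -0.44, and the test of the difference between states called no member. With glucose but without Ler+Glc replicate 1, 6 fell. With RPM as deposited 1 fell and 1 rose. ADH1, alcohol dehydrogenase, stood at 11.5, 15.0 and 15.1 scaled RPM in Ler+Glc and at 5.99, 4.59 and 5.4 in gin2+Glc (-1.23 ± 0.275). GAPC1, a cytosolic glyceraldehyde phosphate dehydrogenase, stood at 828 to 843 in Ler+Glc and at 523 to 567 in gin2+Glc (-0.60 ± 0.116), a direction that turned on the RPM as deposited (0.06).

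**Figure D4:**
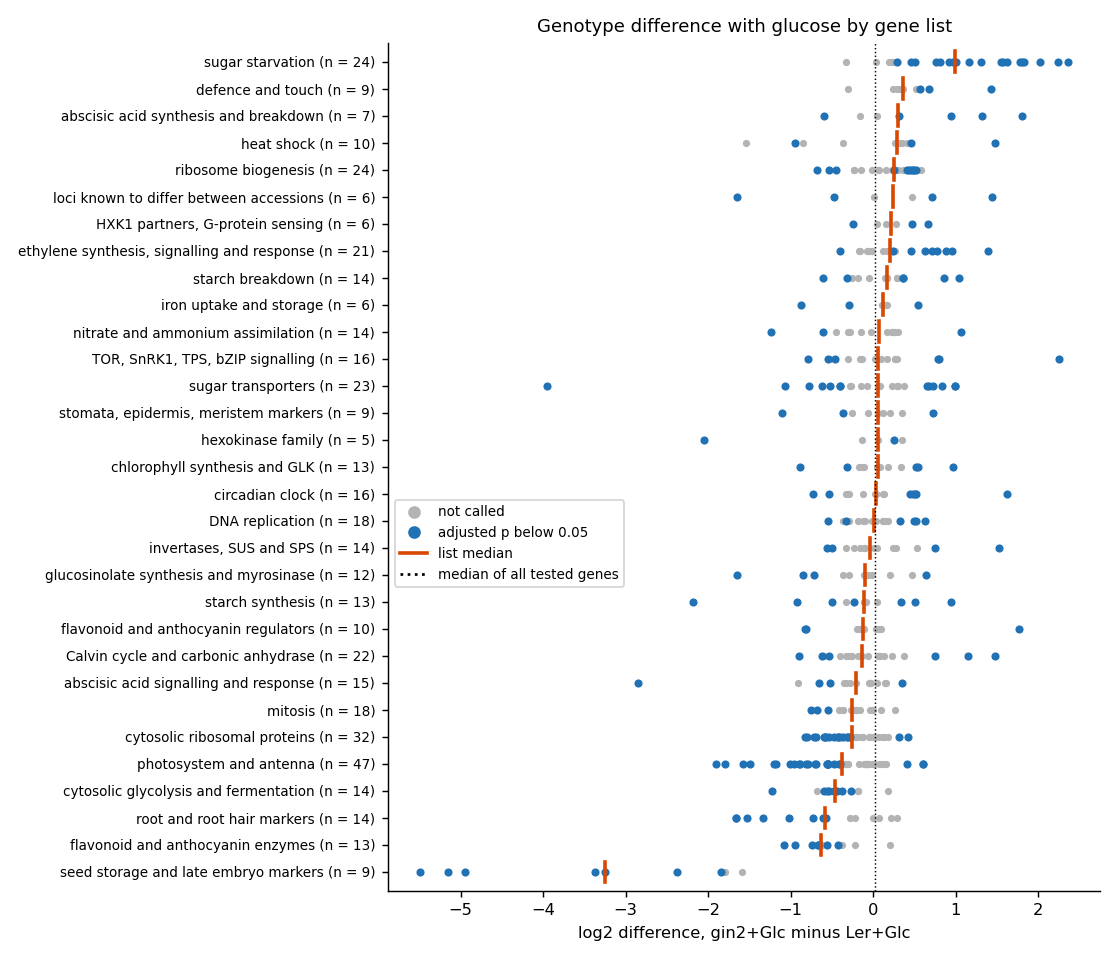
Log2 difference between gin2+Glc and Ler+Glc of each tested member (points) of 31 gene lists, with the list median as a bar and the median of all tested genes as a dotted line. The sugar starvation list has the highest median, 0.99, and seed storage and late embryo markers the lowest, -3.25. On the RPM as deposited all values lie higher, with the median of all genes at 0.62 in place of 0.02, and the medians of most lists below 0 turn to above 0.

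Nuclear genes of the photosystems and antennae were lower in gin2, with 22 of 47 falling, 3 rising and a median difference of -0.38. Deposited RPM gave 5 that fell and 10 that rose, and with scaling within classes of gene length 15 fell and 3 rose. LHCB1.2, a light-harvesting protein of photosystem II, stood at 1053, 684 and 911 scaled RPM in Ler+Glc and at 198, 219 and 288 in gin2+Glc (-1.90 ± 0.229, adjusted p = 4.34e-05, limma). LHCB1.1 (-1.80 ± 0.214), LHCB1.3 (-1.58 ± 0.27) and LHCB1.4 (-1.50 ± 0.305) are near-identical copies that can share reads, so their separate values are uncertain. The same list had 24 lower and 3 higher genes without glucose, and the test of the difference between states called 1 member, LHCB2.3 (0.16 with and -1.03 without glucose), named after its values were seen.

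Genes of the Calvin cycle and carbonic anhydrase had no shared direction, with 3 of 22 higher and 3 lower, and 1 lower without Ler+Glc replicate 1, gin2+Glc replicate 1 or gin2+Glc replicate 3. CP12-2, which binds Calvin cycle enzymes in the dark, stood at 46.2, 44.7 and 29.4 scaled RPM in Ler+Glc and at 103, 111 and 120 in gin2+Glc (1.47 ± 0.152). CA2, a carbonic anhydrase, rose by 1.15 ± 0.173 and PRK, phosphoribulokinase, by 0.74 ± 0.132. RPI3, a ribose phosphate isomerase, fell (-0.90 ± 0.132, on the RPM as deposited -0.23 and not called). In chlorophyll synthesis 3 of 13 genes rose and 2 fell, among them HEMA1, which starts the pathway (0.97 ± 0.149), and GLK1, a transcription factor of chloroplast development (-0.88 ± 0.179, on the RPM as deposited -0.24 and not called).

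Gene lists of growth had no direction in common. Of 24 ribosome biogenesis genes 7 rose and 3 fell, with a median of 0.25, and with scaling within classes of gene length 4 rose and 3 fell. Without Ler+Glc replicate 1 or 2 or gin2+Glc replicate 1 or 2, 3 of them rose, and without gin2+Glc replicate 3, 4 did. The number that fell went to 1 without any 1 of the glucose-treated libraries except Ler+Glc replicate 2. PPAN, a nucleolar assembly factor, rose by 0.51 ± 0.133. FIB2, a fibrillarin, stood at 147 to 169 scaled RPM in Ler+Glc and at 106 to 110 in gin2+Glc (-0.53 ± 0.126), which turned to 0.13 on the RPM as deposited. Of 32 cytosolic ribosomal proteins 16 fell and 2 rose (median -0.25), whereas on the RPM as deposited none fell and 10 rose. The number of ribosomal protein genes that fell was 9 without Ler+Glc replicate 1 and 10 without gin2+Glc replicate 1, without gin2+Glc replicate 2 or with scaling within classes of gene length. RPS15AA (-0.82 ± 0.15) and RPS21B (-0.72 ± 0.102) were among those that fell, along with the ribosome-bound scaffold RACK1A (-0.80 ± 0.206), and none of the 3 was called on the RPM as deposited.

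In DNA replication 4 of 18 genes rose and 2 fell, with a median of 0.01, and MCM3, a helicase subunit, rose by 0.63 ± 0.147. In mitosis none of 18 rose and 3 fell, with a median of -0.25, including the kinase AUR2 (-0.75 ± 0.141) and the anaphase activator CDC20.1 (-0.68 ± 0.113). Without Ler+Glc replicate 3, 6 mitosis genes fell, and without both Ler libraries numbered 3, 8 fell and 1 rose. On the RPM as deposited 3 mitosis genes rose and none fell.

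Genes of abscisic acid metabolism, in which the sugar-sensing mutants of Arabidopsis have often been placed, were called in both directions. Of 7 tested genes 4 rose and 1 fell, against 17.1% of all genes called higher and 16.8% lower. A further 6 of the 13 listed genes were not among those tested. In the unfed seedlings 2 rose and 1 fell, with a median of 0.309 against 0.305 with glucose. The test of the difference between states called 1 member, CYP707A2. CYP707A2, a hydroxylase that breaks abscisic acid down, stood at 7.27, 6.46 and 6.17 scaled RPM in Ler+Glc and at 28.9, 24.7 and 23.2 in gin2+Glc (1.80 ± 0.105, adjusted p = 9.08e-08, limma). AAO3, the aldehyde oxidase of the last synthesis step, stood at 16.4 to 19.6 in Ler+Glc and at 42.7 to 48.5 in gin2+Glc (1.31 ± 0.114). ABA2, the dehydrogenase of the preceding step, fell (-0.59 ± 0.144), although its difference was -0.01 on the RPM as deposited.

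Of 15 genes of abscisic acid signalling and response 1 rose and 3 fell, with 1 falling without Ler+Glc replicate 3 and none without gin2+Glc replicate 2. RAB18, a dehydrin, had the largest fall, from 91.3, 62.0 and 166 scaled RPM in Ler+Glc to 19.4, 8.22 and 12.6 in gin2+Glc (-2.85 ± 0.836, adjusted p = 0.0169, limma). It missed the threshold without Ler+Glc replicate 3 (adjusted p = 0.0538) and without gin2+Glc replicate 2 (adjusted p = 0.0656). The late embryo transcripts described below were highest in the same Ler library.

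Of 21 ethylene genes 8 rose and 1 fell, with a median of 0.20. ACO4, an ACC oxidase of the last step of ethylene synthesis, stood at 61.8, 71.8 and 48.5 scaled RPM in Ler+Glc and at 109, 122 and 119 in gin2+Glc (0.95 ± 0.169). ACO3 of the same family also rose (1.39 ± 0.163). Both were higher in gin2 without glucose as well, by 0.57 and 1.2.

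Flavonoid and anthocyanin enzymes, which sugars induce, had none of 13 members rising and 7 falling, with a median of -0.63. The count rests on single libraries, since 2 fell without gin2+Glc replicate 2, 3 without gin2+Glc replicate 3 and 4 without Ler+Glc replicate 2, against 16.8% of all genes called lower. On the RPM as deposited none fell and 1 rose, and with RPM recomputed over the tested genes, or with scaling within classes of gene length, 4 fell. In the unfed seedlings 7 of the 13 also fell and none rose, with a median of -0.73. The test of the difference between states called no member of this list. UGT79B1, an anthocyanin glycosyltransferase, stood at 6.62, 7.75 and 10.2 scaled RPM in Ler+Glc and at 6.40, 1.87 and 2.67 in gin2+Glc (-1.09 ± 0.291), so that 1 gin2 library was close to the wild type. It was not called without gin2+Glc replicate 2 (adjusted p = 0.0604, limma). Among 10 regulators MYBL2, a repressor of anthocyanin synthesis, rose from 3.78 to 5.93 in Ler+Glc to 16.8 to 21.0 in gin2+Glc (1.76 ± 0.157). PAP1, an activator of the pathway, fell (-0.81 ± 0.236), as did MYB111, an activator of flavonol synthesis (-0.83 ± 0.165), and neither was called on the RPM as deposited. PAP1 was also not called without Ler+Glc replicate 2, gin2+Glc replicate 2 or gin2+Glc replicate 3 (adjusted p = 0.0606, 0.0701 and 0.0617, limma).

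Of 14 genes of nitrate and ammonium assimilation 1 rose and 2 fell. NRT2.1, a high-affinity nitrate transporter, rose from 11.2, 13.4 and 13.2 scaled RPM to 28.4, 27 and 26.3 (1.06 ± 0.171). AMT1;1, an ammonium transporter, fell (-1.24 ± 0.23). NRT1.1, a nitrate transporter and sensor, fell (-0.61 ± 0.129) and turned to 0.05 on the RPM as deposited. Of 6 iron genes 1 rose and 2 fell, with FER3, a ferritin, at -0.88 ± 0.0948 (on the RPM as deposited -0.22 and not called).

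Clock, heat shock and touch genes contributed single large differences. RVE1, a clock output regulator, stood at 0.817, 1.17 and 1.93 scaled RPM in Ler+Glc and at 6.40, 6.12 and 5.35 in gin2+Glc (1.62 ± 0.161), while 5 of 16 clock genes rose and 2 fell. GI, a clock and flowering regulator, fell (-0.73 ± 0.123, not called on the RPM as deposited). HSFA7A, a heat shock factor, rose by 1.47 ± 0.148 as 1 of 2 heat shock genes called higher, against 1 called lower of 10. TCH3, a calmodulin-like protein induced by touch, rose by 1.43 ± 0.159 and was 1.48 higher in gin2 without glucose, and of 9 defence and touch genes 3 rose and none fell. Without Ler+Glc replicate 3, 5 defence and touch genes rose, and without Ler+Glc replicate 1, gin2+Glc replicate 2 or gin2+Glc replicate 3, 1 did.

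The 10 largest rises among genes of at least 5 scaled RPM included SEN5, bZIP63 and TPS8. GASA6, a gibberellin-regulated peptide gene, stood at 17.7, 21.6 and 17.5 scaled RPM in Ler+Glc and at 96.9, 113 and 120 in gin2+Glc (2.48 ± 0.147, adjusted p = 1.05e-07, limma). BBD1, a nuclease of basal defence, rose by 2.3 ± 0.121 and NAC6, a senescence transcription factor, by 2.13 ± 0.167. The codes AT3G20395 (2.52 ± 0.181), AT4G01870 (2.34 ± 0.15), AT2G39400 (2.31 ± 0.127) and AT3G20340 (2.23 ± 0.168) had no symbol in the annotation used. FBA5, a fructose bisphosphate aldolase, stood at 17.8, 17.7 and 12.3 in Ler+Glc and at 66.5, 67.1 and 73.7 in gin2+Glc (2.06 ± 0.165), although without glucose it was lower in gin2 (-0.45).

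Among the 10 largest falls, AT5G27345 showed the most even values, at 22.1, 26.7 and 22.5 scaled RPM in Ler+Glc and 0.864, 1.02 and 1.34 in gin2+Glc (-3.58 ± 0.144, adjusted p = 3.7e-09, limma). Its difference without glucose was -3.39. The other large falls besides GPT2 were seed storage genes, the codes AT2G07698 and AT2G07708, described with their chromosomal neighbours below, and AT2G05580. AT2G05580 stood at 25.3, 12.9 and 49.8 in Ler+Glc and at 3.40, 0.68 and 0.214 in gin2+Glc (-3.67 ± 0.769), with the same order of Ler libraries as the seed storage genes.

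Seed storage, oleosin and late embryo markers were far lower in gin2. Of 9 tested genes 7 fell and none rose, with a median of -3.25. SESA3, a seed albumin, stood at 153, 69.1 and 255 scaled RPM in Ler+Glc and at 4.09, 2.15 and 0.909 in gin2+Glc (-5.49 ± 0.822, adjusted p = 0.00024, limma). Summed over the 9 genes the Ler+Glc libraries had 540, 298 and 986 scaled RPM and the gin2+Glc libraries 45.2, 13.8 and 12.8. CRC (-5.15 ± 0.956), CRA1 (-4.94 ± 0.968), SESA5 (-4.38 ± 0.854) and OLEO1 (-3.37 ± 0.67) followed the same pattern. Leaving out both Ler libraries numbered 3 left 7 of 9 called lower, and leaving out Ler+Glc replicate 3 alone left 5. The sums without glucose were 28.7 to 857 in Ler-Glc and 3.08 to 20.19 in gin2-Glc. How far residual seed transcripts take part in other differences was not tested.

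Of 14 root and root hair markers 8 fell and none rose, with a median of -0.59, and on the RPM as deposited 4 fell and 2 rose. Their sum overlapped between the genotypes, at 1229 to 1782 scaled RPM in Ler+Glc and 1341 to 1437 in gin2+Glc. PRP3, a root hair wall protein, stood at 23.5, 39.8 and 44.1 scaled RPM in Ler+Glc and at 10.1, 10.7 and 9.89 in gin2+Glc (-1.67 ± 0.283). LRX2 (-1.66 ± 0.287) and EXPA18 (-1.53 ± 0.249), genes of root hair walls, fell as well. Of 9 stomatal, epidermal and meristem markers 1 rose and 2 fell, with PDF1 of the shoot epidermis at -1.11 ± 0.209 (on the RPM as deposited -0.45 and not called), and the list's median was 0.06 with 5 of the 9 above 0. The sum over the 9 was 460 to 627 in Ler+Glc and 317 to 342 in gin2+Glc, but PDF1 carried this difference, since the sum over the other 8 was 158 to 175 in Ler+Glc and 165 to 171 in gin2+Glc. Whether the makeup of the seedlings takes part in the differences above was not tested.

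Loci known to differ between accessions were examined because gin2 and Ler are separate lines. ER, the gene whose mutation gives Ler its compact form, stood at 59.6, 65.4 and 57.2 scaled RPM in Ler+Glc and at 60, 61.8 and 60.5 in gin2+Glc, a difference of 0.00 ± 0.0839. FLC, a flowering repressor, stood at 0.899, 1.64 and 1.00 in Ler+Glc and at 4.90, 4.93 and 4.71 in gin2+Glc (1.44 ± 0.171), and FLM, its relative, rose by 0.71 ± 0.12. ESP, a protein that directs glucosinolate hydrolysis, fell from 117, 122 and 107 to 31.2, 45.1 and 33.4 (-1.65 ± 0.173), and HUA2, a flowering regulator, was at -0.47 with the direction turned on the RPM as deposited (0.18). HUA2 lost its call without Ler+Glc replicate 3 (-0.28, adjusted p = 0.201, limma) and without each gin2+Glc library in turn (adjusted p = 0.0826 to 0.124), and also without Ler-Glc replicate 2 or any gin2-Glc library (adjusted p = 0.0508 to 0.061). Without glucose the differences were alike in sign, 1.35 for FLC, 0.59 for FLM, -1.13 for ESP and -0.54 for HUA2. In glucosinolate synthesis 1 of 12 genes rose and 3 fell, including CYP79B2 (-0.86 ± 0.254) and its regulator MYB34 (-0.72 ± 0.117), neither of them called on the RPM as deposited. CYP79B2 was also not called without Ler+Glc replicate 3 (adjusted p = 0.0762, limma) or without gin2+Glc replicate 2 (adjusted p = 0.0503).

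Called genes were spread over the genome. In 171 windows of 100 neighbouring genes the share called ranged from 18% to 49% with a median of 34%. HXK1 lay in a window with 38% called, and of its 50 nearest tested neighbours 17 were called, 8 higher and 9 lower, which is 34%. A window on chromosome 2 from AT2G04520 to AT2G07690 held 26 genes with a difference of at least 2-fold, whether called or not. Of these, 24 were lower in gin2. The median number over windows was 3 and the second highest was 10.

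This window overlaps the stretch of chromosome 2 in which Arabidopsis carries a copy of mitochondrial DNA. Reads from mitochondrial transcripts and from genes of that stretch may therefore not be separable. The next window starts at AT2G08986, so this window and the set of genes that follows share genes and are not separate results. The 24 tested genes from AT2G07600 to AT2G07787, chosen after their values were seen, summed to 1021, 559 and 1555 scaled RPM in Ler+Glc and to 131, 178 and 153 in gin2+Glc, and their median difference was -2.28. Among them AT2G07698 stood at 256, 113 and 267 in Ler+Glc and at 10.3, 15.2 and 10.9 in gin2+Glc (-3.94 ± 0.375, adjusted p = 5.79e-06, limma), and AT2G07708 was at -3.57 ± 0.367. The 2 ribosomal RNA genes of the annotation summed to 10239, 5613 and 19359 in Ler+Glc and to 1309, 2054 and 1698 in gin2+Glc. Both sums were highest in Ler+Glc replicate 3, and the genotype groups did not overlap in either. The difference also moved with gene span, with a median of -0.25 in the shortest of 10 classes of genes by span and 0.10 in the longest. The part of these libraries' composition in the differences of other genes was not tested.

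The genotype difference with glucose was largely present without it. Of the 5887 genes called with glucose, 3652 were called in the same direction in the unfed seedlings, which is 62.0% of the list with glucose and 65.2% of the 5603 genes (32.3% of those tested) called without, and 72 were called in the opposite direction. The comparisons with and without glucose share no library, but the spread of each gene was estimated from all 12 libraries together. The calls in the glucose states are therefore not independent of each other. With a fit of only the compared groups, 3919 genes were called without glucose and 6768 with it. The overlap of calls under that fit was not tested. The unlisted share of the denominator was also larger in Ler in both glucose states. Its mean was 37.9% in Ler-Glc and 15.5% in gin2-Glc, and 41.3% in Ler+Glc and 16.6% in gin2+Glc. The part of this composition in the calls shared by both states was not tested. The difference between the differences was called for 336 genes (1.94%), 277 of which were also called with glucose. Of the 293 genes at least 2-fold higher in gin2+Glc, 110 were among these 336, and of the 371 at least 2-fold lower, 20 were. A 4-fold difference of the same sign in both states was shown by no higher gene and by 39 lower genes.

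**Figure D5:**
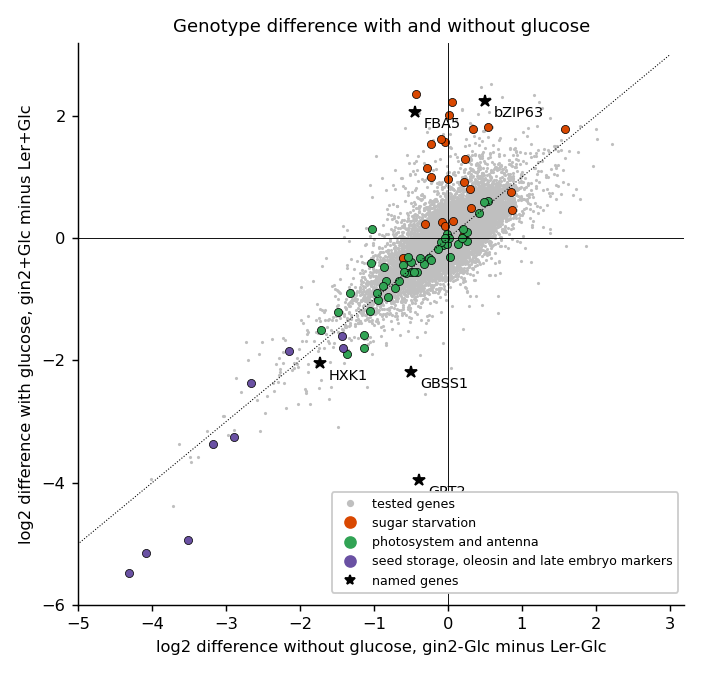
Log2 difference between gin2 and Ler with glucose (vertical axis) against the difference without glucose (horizontal axis), 1 point per tested gene, with the dotted line marking equal differences. Photosystem and seed genes lie near that line, 21 of the 24 starvation genes lie above it, with a median of 0.99 with and 0.04 without glucose, and GPT2 (-3.95 with and -0.39 without) and GBSS1 (-2.18 and -0.49) lie below it.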

How the data were processed

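Messenger RNA of seedlings was sequenced by the authors, who aligned reads with TopHat and counted them with HTSeq, per the submitters' processing notes. Versions, genome build, strand setting and how shared reads were treated are not given in the sources used here. Values deposited are RPM, computed by the authors from whole reads, and the recovered reads (100% of values whole in the 12 libraries, tolerance 0.02) served only edgeR and DESeq2. Genes listed for gin2 alone (1033) and 17 suffixed codes were left out. None of the tested genes lies on the chloroplast or mitochondrial genome.

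RPM was divided by median-of-ratios factors over the 17352 genes, and log2(scaled RPM + 1) of 12 libraries was fitted with limma 3.58.1 in R 4.3.3 (4 group means, mean-variance trend, two-sided tests, Benjamini-Hochberg adjustment). P-values rest on 3 libraries per group. The named genes are HXK1, the hexokinase family and ER, up to 4 called members with the largest differences of each list, the 10 largest rises and falls with at least 5 scaled RPM and no overlap, and the 3 largest differences between states, with exceptions stated. Members and the 31 lists (547 entries, 507 matched by RefSeq symbol, 40 by code alone) were chosen with earlier results of these data known. On simulated data with 17352 genes for gin2+Glc against Ler+Glc, 74 of 100 genes changed 2-fold, 26 of 100 changed 1.5-fold and 5 of 17152 unchanged genes were called. Apart from the changed genes, all simulated libraries had the mean profile of Ler+Glc and lacked the composition differences of the data. The number of unchanged genes called therefore cannot be carried over to the data. Alternatives were other scalings, filters, a pseudocount of 0.25, a fit of only the compared groups, DESeq2 1.42.0, edgeR 4.0.16 with TMM factors, a block for replicate number, a 2-fold minimum and left-out libraries. Scaling within 10 classes of gene span was added after seeing the data.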

Additional observations from a re-analysis of the deposited data

Results flagged for a closer look

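In 30 of the named genes the genotype difference with glucose differed from the difference without glucose by the test of the difference itself (limma, adjusted p below 0.05 over all genes). The values below are the log2 difference in gin2 minus Ler with glucose minus the same without it, and 28 of the 30 were positive. The 106 named genes were mostly chosen by their difference with glucose, and some by the difference between states or after values were seen. The number called and their signs therefore partly follow from that choice and are no separate test. Among all 17352 genes 336 (1.94%) were called for the difference between states, 256 positive and 80 negative.

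The starvation genes stood out by SEN5 at 2.79, TPS8 at 2.18, DIN10 at 2.00, TPS9 at 1.77, TPS11 at 1.60, BT2 at 1.29 and TPS10 at 0.97. For SEN5, TPS8 and DIN10 the difference between states remained called under each of the 22 alternatives that change the scaling, filter, pseudocount, model or libraries.

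In sugar signalling, transport and starch the values were 1.75 for bZIP63, 0.79 for KINB1, 1.28 for STP1, 0.92 for SPS4F and 1.46 for BAM9. GPT2 (-3.56) and GBSS1 (-1.69) were the 2 negative ones. Other metabolic and regulatory genes were FBA5 at 2.52, CP12-2 at 0.97, LHCB2.3 at 1.19, CYP707A2 at 0.71, MYBL2 at 1.27 and RVE1 at 1.37. The call for CP12-2 was lost under 9, for SPS4F under 7 and for CYP707A2 under 6 of the 22 alternatives.

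Among the largest rises the values were 2.03 for GASA6, 1.94 for AT3G20395, 1.74 for BBD1, 1.58 for AT2G39400, 1.18 for AT4G01870 and 1.00 for AT3G20340. The call for AT3G20340 was lost under 12 alternatives. Among genes of the low oxygen response the values were 1.81 for LBD41, 1.91 for HRA1, 1.39 for PCO1 and 1.55 for PCO2.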

How the results depend on the processing

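The scaling and a minimum fold both changed the counts. With RPM as deposited 10185 genes were called with glucose (9905 higher and 280 lower), 8941 without glucose and 51 for the difference between states, and with RPM recomputed over the tested genes 4740 were called higher with glucose. A 2-fold minimum left 664 genes with glucose (293 higher and 371 lower), 502 without and 177 for the difference between states. On the RPM as deposited FIB2 turned to 0.13, GAPC1 to 0.062, NRT1.1 to 0.046, AGB1 to 0.40 and HUA2 to 0.18, and the construction of that setting, which leaves the unlisted share in place, moves all genes of a library together. HXK1 stayed called and negative under each alternative run.

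Leaving out 1 library at a time gave 4164 to 6531 genes with glucose (2035 to 3353 higher and 2076 to 3178 lower), 3652 to 6208 without glucose, 191 to 457 for the difference between states, and -2.14 to -1.998 for HXK1. The count without glucose fell to 3652 without Ler-Glc replicate 2 and to 3701 without gin2-Glc replicate 3. The difference between states fell to 191 without gin2+Glc replicate 2, to 191 without gin2+Glc replicate 3 and to 207 without gin2-Glc replicate 2. Without both Ler libraries numbered 3, 6505 genes were called with glucose, 5259 of them shared with the 5887. The minimum of 1 RPM removed no gene, so leaving it out changed nothing.

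Residuals of same-numbered Ler and gin2 libraries correlated at r = -0.07, 0.11 and 0.02 with glucose and at -0.37, 0.20 and 0.01 without. Whether same-numbered libraries of a genotype pair across the glucose states was not tested. With a replicate block 6202 genes were called, 5751 of them shared with the 5887, and HXK2 was no longer called (adjusted p = 0.0595, limma). edgeR called 6094 and DESeq2 5998 genes with glucose. On simulated data with 100 genes changed 2-fold and 100 changed 1.5-fold, 26 of the 1.5-fold changes were called. Far more genes were called in the data, which makes the adjusted threshold less strict there, so that share cannot be carried over. How often differences of that size were missed in the data was not tested.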

Other observations

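Some genes of the low oxygen response, in a list chosen after values were seen, were higher in gin2 given glucose. Of 10 tested genes 4 rose, 1 fell and 5 did not pass, against 17.1% of all genes called higher and 16.8% lower, and 6 of the 10 lay above 0. LBD41, a transcription factor induced by low oxygen, stood at 28.8, 30.8 and 35.3 scaled RPM in Ler+Glc and at 92.8, 92.7 and 111 in gin2+Glc (1.61 ± 0.252, adjusted p = 0.000323, limma). HRA1, a trihelix factor that restrains this response, stood at 8.58 to 18.4 in Ler+Glc and at 33.5 to 36.7 in gin2+Glc (1.36 ± 0.221). The plant cysteine oxidases PCO1 (1.29 ± 0.185) and PCO2 (1.22 ± 0.152), which mark oxygen-labile transcription factors for degradation, rose as well. Without glucose the 4 genes had values of -0.20, -0.55, -0.10 and -0.33 and none was called, while ADH1, a fermentation gene of the same response, was lower in gin2 with glucose. The 5 that did not pass were HB1 (-0.22), SUS4 (-0.11), PDC1 (-0.69), HRE1 (0.49) and CML38 (0.58).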
